A study of Sus scrofa with 8 samples.

Results

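The genes described here are 10 genes of the BMP (bone morphogenetic protein) pathway in porcine pancreas ductal organoids (PPDO). They comprise ID1, ID2, ID3, ID4, SMAD6, SMAD7, SMAD9 and ATOH8, known as transcriptional targets of BMP signalling, and the ligand genes BMP3 and GDF6. They were selected by name from 30282 genes of a bulk RNA-Seq count table, and the choice was made on their behaviour in the same comparison of media that is described below. Their differences between the media are therefore given as a description, without a test. Of the 10 genes, 9 passed the expression filter and were among the 14475 genes fitted, and GDF6 did not pass.

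Organoids of 4 PPDO lines, which the study treats as biological replicates, were cultured for a week in complete or in differentiation medium, with 1 library for each line and medium. The lines were 1 embryonic line (Em), 2 early postnatal lines (EPN1 and EPN2) and 1 late postnatal line (LPN), and the donor pigs of the study were wild type or carried an INS-eGFP reporter. Complete medium held N2, B27, A83-01, nicotinamide, N-acetyl-L-cysteine and Y-27632 together with WNT3a, R-spondin1, noggin, FGF10, EGF, gastrin and prostaglandin E2. Differentiation medium kept the first 6 of these and lacked the other 7, so the loss of noggin cannot be told apart from the loss of the other factors. In maintained PPDO cultures the study supplied WNT3a, R-spondin1 and noggin as an L-WRN conditioned medium supplement. Whether these 8 libraries had the supplement is not stated, and its loss could not be told apart either. A83-01, an inhibitor of the type I receptors for TGF-beta and activin, was in the medium of all 8 libraries. Each stage other than early postnatal rests on a single line.

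BMP ligands bind pairs of type I and type II serine/threonine kinase receptors, which phosphorylate SMAD1, SMAD5 and SMAD9, and these enter the nucleus with SMAD4. Their best known direct targets are the ID genes, whose proteins bind basic helix-loop-helix (bHLH) factors and keep them from DNA, and SMAD6 and SMAD7, which feed back to inhibit the receptors. Noggin is a secreted protein that binds BMP ligands and keeps them from their receptors. In the developing pancreas the pathway is known for a part in the choice between endocrine and ductal fates.

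Levels are CPM, counts per library scaled to a common total with TMM factors, and values in each medium are always given in the order Em, LPN, EPN1 and EPN2. Library totals were 40553626 to 47910671 counts, so that a count of 0 allowed up to 3 counts, or 0.0626 to 0.0740 CPM. CPM is not divided by transcript length, so levels are compared between libraries and not between genes. Ductal identity was checked with 11 markers, all of which passed the filter. Their summed level was 6827 to 11242 CPM in complete medium and 3956 to 14915 CPM after differentiation culture, lowest in EPN2. The markers did not move together. CDH1 was higher in all 4 lines, at 1303 ± 416 against 2777 ± 837 CPM (SD, n = 4). KRT8 had 3462, 3056, 2732 and 2270 CPM in complete medium and 4902, 1458, 3605 and 425 CPM in differentiation medium. CFTR, named after its values had been seen, went from 85.1 to 2.96 CPM in EPN2 and from 7.67 to 25.1 CPM in LPN. In bulk RNA, fewer cells of a type and less RNA per cell cannot be told apart.

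All 4 ID genes were higher in differentiation medium in each of the 4 lines, but the size of the difference varied widely among lines. ID1 (ENSSSCG00000037016, chr17:35316518-35317742 in Sscrofa11.1) stood at 53.7, 80.1, 101 and 97.6 CPM in complete medium and at 216, 135, 105 and 263 CPM in differentiation medium. The media did not overlap, yet the margin was small, since EPN1 in differentiation medium (105 CPM) lay 1.04-fold above EPN1 in complete medium. Across lines the mean was 83.0 ± 21.5 CPM in complete medium against 180 ± 72.4 CPM (SD, n = 4), a fitted log2 fold change of 1.11 with an SE of 0.33.

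ID2 (ENSSSCG00000008645, chr3:127500759-127503207) had 38.8, 79.2, 88.4 and 24.7 CPM in complete medium and 300.2, 87.0, 191 and 109 CPM in differentiation medium. The media overlapped, since LPN in differentiation medium lay just under EPN1 in complete medium; LPN was 1.10-fold higher than its own library in complete medium, while Em was 7.73-fold higher. ID3 (ENSSSCG00000039514, chr6:81422541-81424169) had 4.72, 18.0, 30.5 and 34.0 CPM in complete medium and 128, 24.7, 48.6 and 78.7 CPM in differentiation medium. Em was the lowest line for ID3 in complete medium and the highest in differentiation medium, a 27.1-fold difference, whereas the other lines were 1.37 to 2.32-fold higher and their media overlapped. The fitted log2 fold changes were 1.57 (SE 0.52) for ID2 and 1.68 (SE 0.67) for ID3.

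ID4 (ENSSSCG00000024312, chr7:15281535-15284895) was over 4-fold higher in differentiation medium in every line. It had 11.1, 16.2, 26.7 and 9.69 CPM in complete medium and 220.0, 69.1, 112 and 68.2 CPM in differentiation medium. The lowest library in differentiation medium was above the highest in complete medium, and the 4 lines were 4.20 to 19.8-fold higher, with a fitted log2 fold change of 2.88 (SE 0.50).

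**Figure D1:**
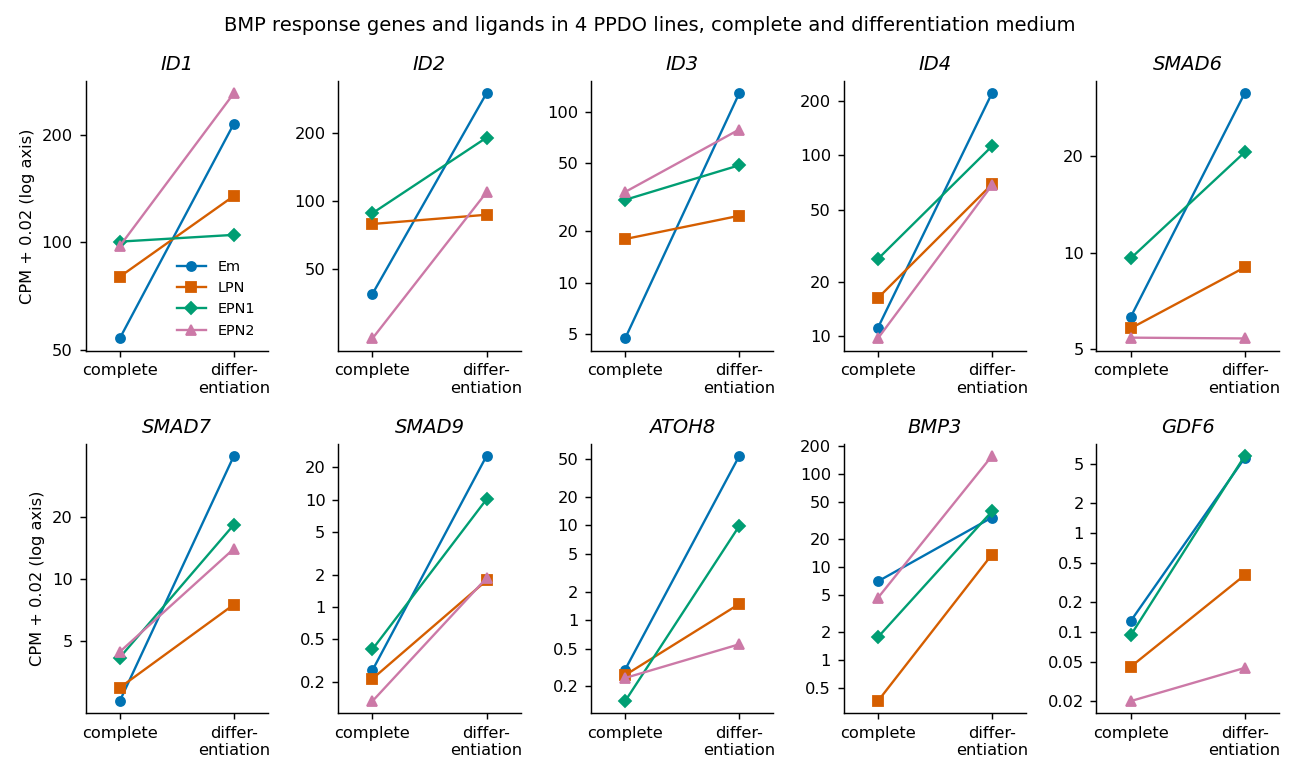
Level of each of the 10 genes in complete and differentiation medium, as CPM + 0.02 on a log axis whose range differs between panels. Each point is 1 library and each line of the plot joins the 2 libraries of a PPDO line; 8 of the 10 genes were higher in all 4 lines, SMAD6 was level in EPN2, and GDF6 was within the counting limit in both media of EPN2.

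SMAD6 and SMAD7 encode the inhibitory SMADs, and the 2 genes differed in how many lines shifted. SMAD6 (ENSSSCG00000004948, chr1:164652602-164735084) had 6.28, 5.80, 9.59 and 5.42 CPM in complete medium and 31.4, 8.99, 20.6 and 5.39 CPM in differentiation medium. It was higher in Em (5.01-fold), EPN1 (2.15-fold) and LPN (1.55-fold), and its fold in EPN2 was 0.994, with a 95% counting interval of 0.826 to 1.20. The media overlapped, and it was the only one of the 9 genes fitted that was not higher in every line. Its fitted log2 fold change was 1.29 (SE 0.53).

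SMAD7 (ENSSSCG00000004507, chr1:98512800-98543924) had 2.53, 2.95, 4.13 and 4.41 CPM in complete medium and 39.5, 7.49, 18.3 and 14.0 CPM in differentiation medium. The media did not overlap, and the lines were 2.54 to 15.6-fold higher, with a log2 fold change of 2.50 (SE 0.51). In EPN2, where SMAD6 was level, SMAD7 was 3.17-fold higher.

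SMAD9 encodes a receptor-activated SMAD and ATOH8 a bHLH transcription factor, and both were close to the counting limit in complete medium. SMAD9 (ENSSSCG00000009357, chr11:12705652-12727981) had 11, 8, 16 and 5 counts in complete medium and 1241, 84, 446 and 79 counts in differentiation medium. That is 0.113 to 0.385 CPM against 25.6, 1.75, 10.1 and 1.84 CPM. Em and EPN1 were high and LPN and EPN2 low within differentiation medium, and all 4 were above every library in complete medium. The folds were 107 (95% counting interval 59.8 to 216), 8.99, 26.2 and 16.3, with a fitted log2 fold change of 5.38 (SE 1.05).

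ATOH8 (ENSSSCG00000008230, chr3:58964541-59001620) had 13, 10, 5 and 10 counts in complete medium and 2600, 70, 433 and 23 counts in differentiation medium, which is 0.120 to 0.281 CPM against 53.6, 1.46, 9.79 and 0.537 CPM. The order of the lines was the same as for SMAD9 at the top, with Em first and EPN1 second. The folds were 190 (111 to 358) in Em and 81.5 (34.7 to 252) in EPN1, against 5.99 in LPN and 2.38 (1.09 to 5.59) in EPN2. Its fitted log2 fold change was 6.21 with the largest SE of the genes fitted among the 10, 1.50.

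The 2 ligand genes followed different lines. BMP3, a divergent BMP family ligand known for opposing other BMPs, (ENSSSCG00000029061, chr8:136880456-136904739) had 6.95, 0.341, 1.73 and 4.61 CPM in complete medium and 33.8, 13.5, 39.3 and 155 CPM in differentiation medium. Its level was highest in EPN2, and its fold was smallest in Em (4.86) and 39.6, 22.7 and 33.6 in LPN, EPN1 and EPN2. The media did not overlap, and the log2 fold change was 4.14 (SE 1.06).

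GDF6 (ENSSSCG00000034943, chr4:40473015-40491142), a BMP family growth factor, was listed at 5, 1, 3 and 0 counts in complete medium and at 276, 17, 264 and 1 counts in differentiation medium. It was thus detected clearly in Em and EPN1 in differentiation medium (5.69 and 5.97 CPM), weakly in LPN (0.355 CPM), and not above the limit in EPN2. The folds were 52.6 (22.3 to 163) in Em and 82.8 (28.0 to 404) in EPN1, while that of LPN, 14.6 (2.28 to 608), rests on 1 count in complete medium. No fold is given for EPN2. The counting intervals here and above do not include the variation between cultures.

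Of the 10 genes, 8 were higher in differentiation medium in all 4 lines, against 23.9% of the genes fitted over the whole table. SMAD6 and GDF6 were higher in 3 lines, since EPN2 gave no direction for GDF6 at 0 and 1 counts. The libraries of the media did not overlap for 6 of the 10 (ID1, ID4, SMAD7, SMAD9, ATOH8 and BMP3), against 8.82% of all genes fitted. In the edgeR fit with the medium as its only term, 4 of the 9 genes fitted (ID4, SMAD7, SMAD9 and ATOH8) had an adjusted p under 0.05 in the higher direction, where 2.87% of all genes fitted were called higher and 4.10% lower. With the line as a block, 4 were called as well, but BMP3 took the place of ATOH8, and the background was 9.48% higher and 10.4% lower. Because the genes were selected on this contrast, nothing is read from these counts. Without both libraries of 1 line in turn, 6 to 8 of the 10 genes had media that did not overlap, and the background was 10.6 to 17.3%. The count of genes called fell to 0 without the complete medium library of Em or LPN or the differentiation medium library of EPN1, and to 1 without the complete medium library of EPN1.

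The median log2 fold change of the 9 genes fitted was 2.50, and that of all genes fitted was 0.01. Relative to the other genes of the table, ATOH8 ranked 15 and SMAD9 ranked 30 by log2 fold change among 14475, while ID1 ranked 1073. The 2 genes with the largest fitted values were thus those near the counting limit in complete medium. As the genes were selected on this contrast, nothing is read from the medians or the ranks either.

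The embryonic line had the largest fold for 8 of the 10 genes, with BMP3 (LPN) and GDF6 (EPN1) as the exceptions. In Em all 10 genes were over 2-fold higher, with a median fold of 17.7, against 10.7% of all genes fitted. In EPN1 the count was 8 of 10 with a median of 4.31 (background 13.0%), in EPN2 8 of 10 with a median of 3.17 over the 9 genes with a fold (background 8.68%), and in LPN 6 of 10 with a median of 3.40 (background 10.5%). The genes below 2-fold in LPN were ID1, ID2, ID3 and SMAD6, those in EPN1 were ID1 and ID3, and that in EPN2 was SMAD6 next to GDF6, for which no fold is given. With 1 embryonic line, stage and line cannot be told apart.

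**Figure D2:**
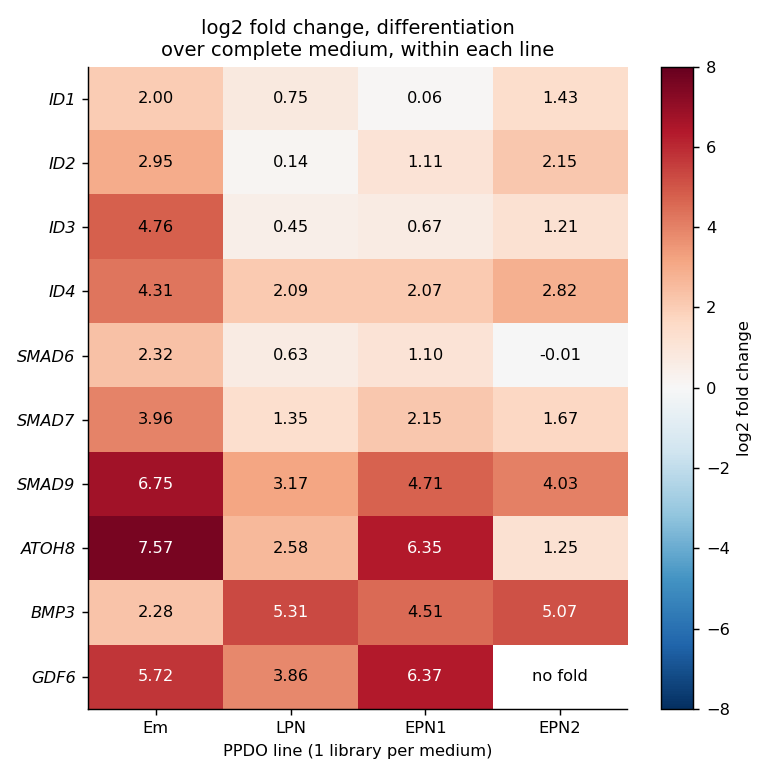
Log2 fold change of each gene between the 2 libraries of a PPDO line, differentiation over complete medium, as colour and as a number, without a pseudocount. Em has the deepest colour in every row but those of BMP3 and GDF6, and the cell of GDF6 in EPN2 reads no fold because it had 0 and 1 counts.

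The lines also differed more from each other in one medium than in the other, and the direction depended on the gene. In complete medium the highest line was 1.77-fold above the lowest for SMAD6, 1.74-fold for SMAD7, 3.40-fold for SMAD9 and 2.34-fold for ATOH8. In differentiation medium the same ratios were 5.83, 5.27, 14.6 and 99.8. For ID3 and BMP3 the lines were further apart in complete medium, with ratios of 7.20 and 20.4, than in differentiation medium, with 5.20 and 11.4. Over all 8 libraries, the 36 pairs of the 9 genes fitted had a median Pearson correlation of 0.78 on the log2 scale (range 0.33 to 0.97), which includes the shift between the media that chose them.

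The count table gives separate rows for some genes with the suffix ext10kb, which the study summed with the other rows of the gene, and the share of these rows differed among the 10 genes. They held 23.7% of the ID4 counts in differentiation medium, 58.4% of those of SMAD9 and 71.5% of those of GDF6, and at most 10.8% for each of the other 7 genes. For ID4 the fold between the media from the summed library totals was 7.80 in the rows without the suffix and 7.70 in those with it, and for SMAD9 it was 46.5 and 43.5. For GDF6 the extension row went from 1 to 399 counts and the other row from 8 to 159. ATOH8 was the gene in which they differed most in the other direction, with folds of 112 and 23.4. Without the extension rows the fitted log2 fold changes of the 9 genes kept their sign.

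Markers of other cell types were set beside the members. COL3A1, a fibrillar collagen of mesenchymal cells, had 1, 2, 1 and 0 counts in complete medium and 244, 8, 268 and 2 counts in differentiation medium, so it was high in the same 2 libraries as GDF6, SMAD9 and ATOH8. Over the 10 stromal markers, 4 passed the filter, and none was called by edgeR with the medium alone (1 at an unadjusted p under 0.05, 3 called by DESeq2). Of all 14475 genes fitted, 3954 had an unadjusted p under 0.05 in that edgeR fit. With the line as a block PDGFRB was called lower (log2 fold change -3.04, edgeR adjusted p = 0.016). The 10 stromal markers summed to 213 to 464 CPM in complete medium against 218 to 584 CPM in the other medium, most of it from THY1. COL1A2, another fibrillar collagen, had 0, 0, 0 and 9 counts in complete medium and 85, 1, 11 and 18 in differentiation medium, and the mesenchymal receptor gene PDGFRA had 2, 4, 1 and 4 against 14, 29, 25 and 6. PDGFRB and VIM were lower in all 4 lines, with VIM at 21.5 to 66.7 CPM in complete medium against 1.49 to 41.5 CPM. COL1A1 was at most 1.15 CPM, ACTA2 at most 15 counts, LUM at 0 or 1 counts in every differentiation medium library, and DCN at 8, 0, 0 and 8 counts there. The part of such cells in the result was not tested. Of the 7 endothelial markers, which matter because ATOH8 and SMAD6 are also expressed in vessels, CDH5 had at most 1 count, ERG at most 2 and EMCN at most 5 in any library. TEK, an endothelial receptor gene, had 5, 2, 1 and 3 counts in complete medium and 24, 24, 549 and 12 in differentiation medium and was not called (log2 fold change 5.71, SE 1.52, edgeR adjusted p = 0.061), and KDR had 10.6, 6.68, 16.9 and 12.5 CPM against 33.8, 3.36, 19.7 and 11.8 CPM. PECAM1 was lower in all 4 lines, at 9.63 to 17.6 CPM against 7.96 to 12.3 CPM, VWF was at most 0.560 CPM, and the summed level was 21.9 to 34.9 CPM in complete medium against 16.3 to 44.7 CPM. The part of endothelial cells in the result was not tested. The 7 immune markers summed to 1179 to 1849 and 1048 to 1221 CPM, nearly all from CD79A, with CD3E at 3 counts or fewer. The acinar and endocrine markers summed to 0.439 to 2.47 and 0.350 to 21.3 CPM, with the highest value in Em, where the count of GCG was 93 in complete medium and 835 in differentiation medium. CHGA, the only 1 of them fitted, had 0.390, 0.146, 0.120 and 0.271 CPM in complete and 2.33, 0.229, 0.407 and 0.0700 CPM in differentiation medium. COL3A1, COL1A1, COL1A2, PDGFRA, PDGFRB, ACTA2, LUM, DCN, CDH5, ERG, EMCN, TEK, VWF, CD3E, CD68, PTPRC and GCG were named after their values had been seen. So were LYZ and AIF1.

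The other genes of the pathway were read from lists of names, with the edgeR test adjusted over all genes fitted. Of 10 other BMP ligand genes in the data, 4 passed the filter, and 1 of these was called. BMP7, a ligand that noggin binds, had 26.0, 23.1, 21.2 and 42.2 CPM in complete medium and 5.09, 0.960, 2.83 and 2.17 CPM in differentiation medium. It fell by 3.35 on the log2 scale (SE 0.51, edgeR adjusted p = 0.017) and was lower in all 4 lines. Without the differentiation medium library of EPN1 the adjusted p of BMP7 in edgeR was 0.066. The median log2 fold change of the 4 ligands was 0.66, and BMP5, BMP10 and BMP15 had no count.

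BMP4, a ligand of the same receptors, had 22.1, 9.79, 12.8 and 24.0 CPM in complete medium and 61.0, 13.4, 46.4 and 9.03 CPM in differentiation medium. It was not called (log2 fold change 0.92, SE 0.62, edgeR adjusted p = 0.37). Within differentiation medium BMP4 was highest in Em and EPN1 and lowest in EPN2, where BMP3 was highest. Em and EPN1 were also the 2 highest lines for ID2, ID4, SMAD6, SMAD7, SMAD9, ATOH8 and GDF6. For ID1 and ID3 the order was another one, with EPN2 above EPN1 (263 against 105 CPM for ID1, 78.7 against 48.6 CPM for ID3). BMP2 was at 5.67 to 19.9 CPM over the 8 libraries and BMP6 at 0.192 to 3.08 CPM, with edgeR adjusted p of 0.53 and 0.23. BMP2 and BMP6 were named after their values had been seen.

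**Figure D3:**
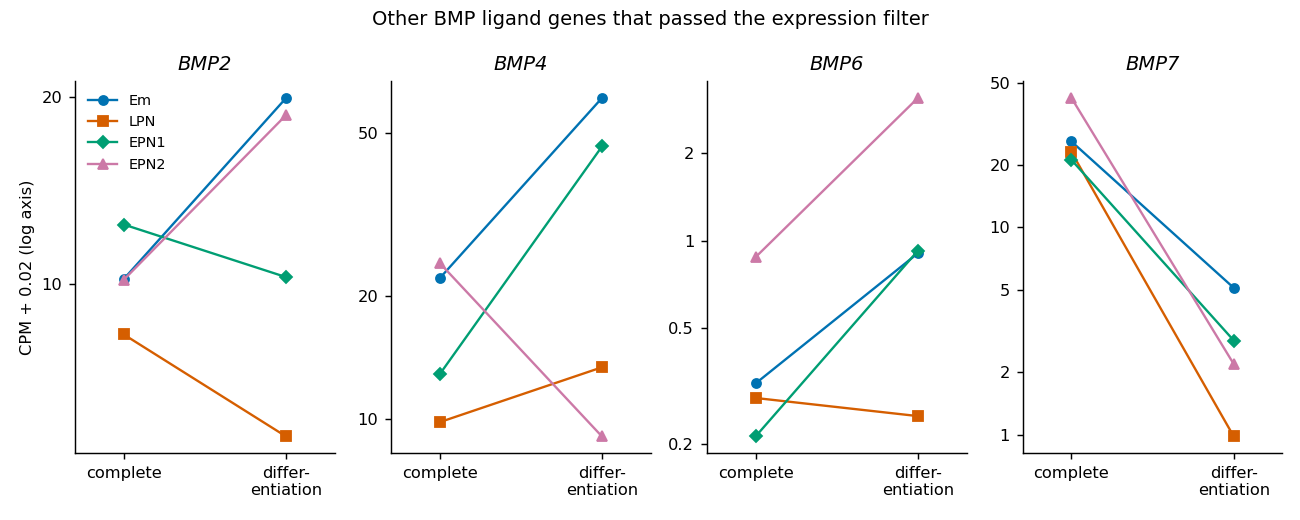
Level of the 4 other BMP ligand genes that passed the filter, as CPM + 0.02 on log axes of different range, with 1 point per library and the 2 libraries of a PPDO line joined. BMP7 was lower in differentiation medium in all 4 lines, from 28.1 ± 9.59 to 2.76 ± 1.73 CPM (SD, n = 4), and BMP4 was higher in Em, EPN1 and LPN and lower in EPN2.

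The receptors, transducers and antagonists had no call in the edgeR fit with the medium alone. In that fit 4 receptor, 0 transducer and 3 antagonist genes had an unadjusted p under 0.05, against 3954 of all 14475 genes fitted. DESeq2 without the line called 3, 0 and 3 genes of these lists. Of 12 receptor and co-receptor genes 10 were fitted, with a median log2 fold change of 0.17. BMPR2, the type II receptor, had a mean of 104 ± 15.8 CPM in complete medium against 123 ± 16.7 CPM (SD, n = 4; edgeR adjusted p = 0.35), and the co-receptor NEO1 had a log2 fold change of -0.03 (SE 0.20). With the line as a block, 9.48% of all genes fitted were called higher and 10.4% lower. In that block fit 3 receptor genes were called higher (BMPR1B, ACVR2A and RGMA) and 2 lower (ACVR1 and ENG), all 5 named after their values had been seen. Of these, ACVR1, a type I receptor, fell by 0.76 on the log2 scale (edgeR adjusted p = 0.048 with the block and 0.078 without), and RGMA, a co-receptor, was higher by 2.81 (0.013 with the block and 0.43 without).

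All 10 SMAD transducer and SMURF genes were fitted, with a median log2 fold change of -0.09. SMAD3 had a log2 fold change of -0.08 (SE 0.22), and NEDD4L, a ubiquitin ligase that acts on SMADs, had -0.88 (SE 0.39, edgeR adjusted p = 0.19), which with the block was -0.80 and called (adjusted p = 0.033). SMAD1 and SMAD5, the receptor-activated SMADs that share their role with SMAD9, were at 44.1 to 66.5 CPM and 33.6 to 46.3 CPM over all 8 libraries, with log2 fold changes of -0.14 (SE 0.14) and -0.15 (SE 0.13), and were named after their values had been seen. On the same scale SMAD9 had 5.38.

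Of 18 genes for BMP antagonists and modulators in the data, not all of them secreted, 11 were fitted, with a median of -0.10. CRIM1 had a log2 fold change of 0.60 (SE 0.36, edgeR adjusted p = 0.32) and TWSG1 of -0.32 (SE 0.15, edgeR adjusted p = 0.21). CHRD, the gene for chordin, was lower in all 4 lines, from 9.03 ± 3.76 to 1.43 ± 1.66 CPM (SD, n = 4). It was not called, with a log2 fold change of -2.65 (SE 0.95, edgeR adjusted p = 0.12), or -3.19 with the block (edgeR adjusted p = 0.059). NBL1 was the 1 fitted gene of the list that was higher in all 4 lines. With the block NBL1 was called higher (0.87, edgeR adjusted p = 0.026) and FSTL3 lower (-0.84, edgeR adjusted p = 0.046). Over all genes fitted the block fit called 9.48% higher and 10.4% lower. CHRD, NBL1 and FSTL3 were named after their values had been seen. The gene for noggin itself, NOG, did not pass the filter and was listed at 0, 2, 1 and 12 counts in complete medium against 1, 1, 7 and 6.

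Of 17 other genes known as BMP targets in the data, 12 were fitted, 5 of them higher in all 4 lines (MSX1, MSX2, DLX2, DLX5 and TBX3), against the 23.9% of all genes fitted. Of the 12, none was called by edgeR with the medium alone (2 at an unadjusted p under 0.05, 2 called by DESeq2), and the median log2 fold change was 0.72. Over all 14475 genes fitted, 3954 had an unadjusted p under 0.05 in that edgeR fit. JUNB had a log2 fold change of -0.35 (SE 0.30) and KLF10 of -0.34 (SE 0.39). With the block DLX2, DLX5 and TBX3 were called higher and RUNX2 lower, and these, MSX1 and MSX2 were named after their values had been seen. Over all genes fitted the block fit called 9.48% higher and 10.4% lower. DLX2, a homeobox factor, had 0.0866, 1.32, 1.51 and 0.949 CPM in complete and 0.866, 9.33, 4.68 and 6.98 CPM in differentiation medium. Em had the lowest level of DLX2 in each medium. TBX3, a T-box factor, had 0.130, 0.0487, 0.264 and 0.407 CPM in complete medium and 4.99, 0.459, 0.588 and 2.38 CPM in differentiation medium, where Em was the highest line.

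The bHLH genes whose products ID proteins bind or resemble numbered 14 in the data, 8 of them fitted, with a median of -0.08. None was called by edgeR with the medium alone, where 4 had an unadjusted p under 0.05, against 3954 of all 14475 genes fitted. DESeq2 called 3 genes of the list. TCF3, an E protein gene and a known partner of the IDs, had a log2 fold change of 0.78 (SE 0.24, edgeR adjusted p = 0.088), and MYC had -0.72 (SE 0.27, edgeR adjusted p = 0.13). With the block only ASCL2, named after its values had been seen, was called, with a log2 fold change of -1.80 (edgeR adjusted p = 0.022). The background in the block fit was 9.48% higher and 10.4% lower.

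The parallel TGF-beta and activin branch was read from 21 genes, 18 of them fitted, with a median of -0.09. Of this list 2 genes were called by edgeR with the medium alone, both lower in all 4 lines. TGFB1, a ligand, had 93.9, 135, 194 and 81.9 CPM in complete and 12.3, 32.1, 28.2 and 16.5 CPM in differentiation medium and fell by 2.50 on the log2 scale (SE 0.40, edgeR adjusted p = 0.018). GDF15, a stress-induced family member, had 44.1, 24.1, 20.5 and 22.6 CPM in complete and 5.61, 1.61, 3.39 and 5.37 CPM in differentiation medium and fell by 2.80 (SE 0.45, edgeR adjusted p = 0.019). The TGFB1 call was lost without the complete medium library of LPN or EPN1 or the differentiation medium library of EPN1 (edgeR adjusted p = 0.057, 0.052 and 0.061), and that of GDF15 without the first or the last of these (0.053 and 0.073).

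The target gene CCN2 had 68.4, 71.2, 83.5 and 138 CPM in complete and 1160, 72.6, 326 and 26.5 CPM in differentiation medium, high in Em and EPN1 as were SMAD9, ATOH8 and GDF6, and was not called (edgeR adjusted p = 0.22). The receptor TGFBR2 had a log2 fold change of -0.49 (SE 0.25). With the block SKIL was called higher and CCN1, TGIF1, TGFB1 and GDF15 lower, against a background of 9.48% higher and 10.4% lower. SKIL, PMEPA1 and LDLRAD4 were the 3 fitted genes of the list that were higher in all 4 lines. PMEPA1 (log2 fold change 1.57, SE 0.49) and LDLRAD4 (2.06, SE 0.60) were not called (edgeR adjusted p = 0.090 and 0.077). SKIL, CCN1, TGIF1, PMEPA1 and LDLRAD4 were named after their values had been seen.

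**Figure D4:**
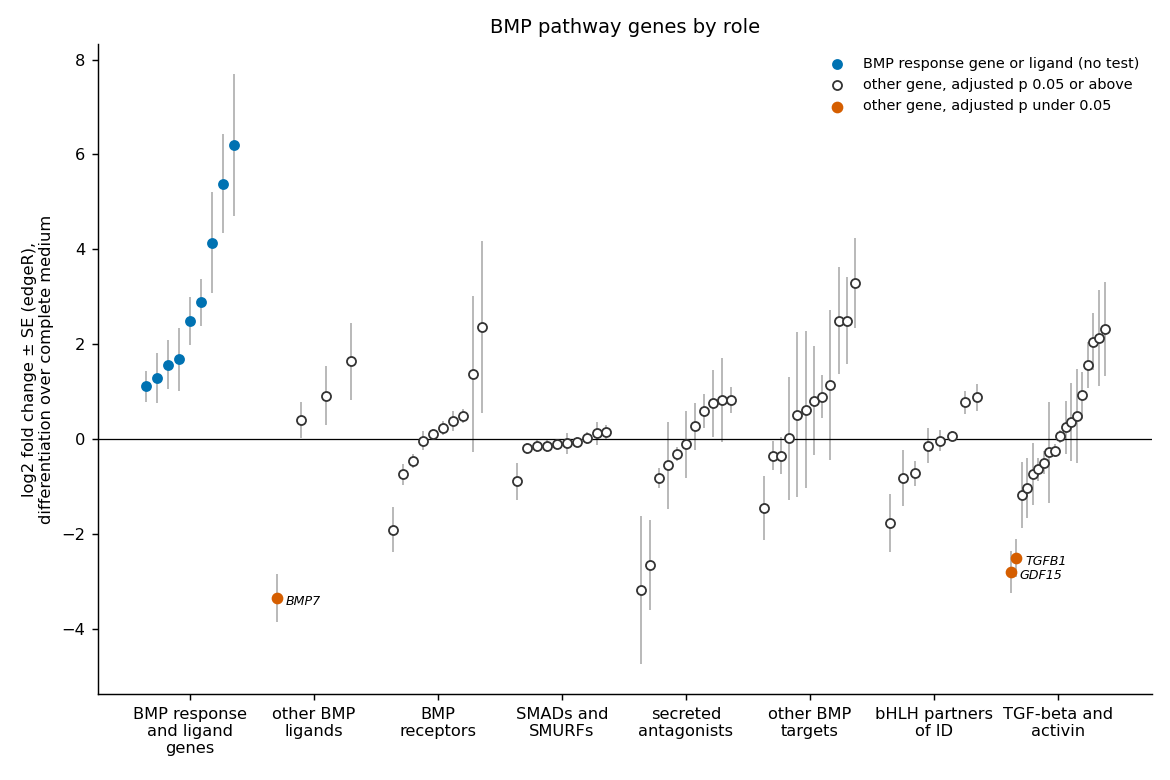
Log2 fold change ± SE from the edgeR fit with the medium alone for the 9 genes fitted of the 10 (left, given without a test) and for the genes of each list of the pathway, sorted within a list. The 9 genes lie between 1.11 and 6.21, and of the other genes BMP7, TGFB1 and GDF15 were called, all 3 lower in differentiation medium.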

How the data were processed

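The authors prepared poly(A)-selected RNA from 4 PPDO lines in 2 media, sequenced it in paired-end mode, and quantified it by salmon, run through nf-core, on a pig genome with custom annotation. They deposited a table of estimated counts per gene. The submitters' processing notes list the builds Sscrofa11.1 and GRCh38. The study's methods speak of gene length scaled counts, and whether the deposited counts were scaled could not be read from the values, of which 83.2% of those above 0 were whole within 0.001. The submitters' treatment field is the same for all 8 samples, so media were taken from sample titles, and lines from column names. Each line gave 1 library per medium, so the spread is that between lines.

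The rows of a gene (suffixes iso and ext) were summed and rounded, and 8 reporter rows, with 0.00142% of counts, were left out, as they name no pig gene. Extension rows held 2.58% of all counts. Media were compared in R 4.3.3 with edgeR 4.0.16: TMM, filterByExpr at its defaults, and a quasi-likelihood F-test on medium alone, adjusted by Benjamini-Hochberg over 14475 genes with a threshold of 0.05. Alternatives were DESeq2 1.42.0 and its size factors, no filter, the line as replicate block, no extension rows, and each library left out. The scripts were tested on simulated data. Same-line libraries deviated together from the mean of their medium (correlation 0.40 to 0.66 for 4 pairs, against -0.48 to 0.24 for 12 pairs of different lines), so the lines pair the samples. Counting intervals are exact 95% intervals of a ratio of counts and cover counting error only.

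The 10 genes and all lists were chosen with earlier results of these data known. Named genes are the 10, every gene of a pathway list past the threshold, the 2 most abundant of each list, and the 5 genes most correlated over the 8 libraries, on log2(CPM + 0.5), with ID1 and with BMP3. Others are said to be named after their values were seen. Positions are those of RefSeq for Sscrofa11.1, matched by symbol for 10 of 10 genes, and no sequence was used.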

Additional observations from a re-analysis of the deposited data

How the results depend on the processing

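The log2 fold changes of the 9 genes fitted kept their direction under every alternative run, and GDF6, which failed the filter, has no main value to compare. Leaving out each library in turn gave 0.87 to 1.31 for ID1, 1.16 to 1.87 for ID2, 1.22 to 1.98 for ID3, 2.39 to 3.27 for ID4, 0.79 to 1.59 for SMAD6, 1.92 to 2.77 for SMAD7, 4.28 to 5.75 for SMAD9, 4.16 to 6.61 for ATOH8 and 3.08 to 4.76 for BMP3. The count of the 10 called higher was 8 with DESeq2, 10 with DESeq2 and the replicate block, 4 with edgeR and the block, and 0 to 5 without single libraries. Of the 14475 genes of the main fit, 1009 were called, and 2884 with edgeR and the block. The count was 506 without a filter, 2998 with DESeq2, 5608 with DESeq2 and the block, and 70 to 1199 without single libraries. These are not counts out of the same genes. DESeq2 and the fit without a filter started from the unfiltered genes, and each fit without 1 library was filtered anew. DESeq2 also tests with another estimate of spread, and the cause of the shifts was not tested.

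With DESeq2, calls were 3 for receptors, 3 for antagonists, 2 for other targets, 3 for bHLH genes, 4 for the TGF-beta list, 2 for ductal and 3 for stromal markers. With edgeR and the replicate block, the same counts were 5, 2, 4, 1, 5, 3 and 1, and 1 for SMAD transducers. With DESeq2 and the block, they were 7, 4, 4, 3, 8, 3 and 5, with 2 for ligands, 1 for SMAD transducers and 1 for endothelial markers. Without the extension rows 1 receptor gene was called. Leaving out single libraries gave 0 to 1 calls for ligands, receptors, antagonists, bHLH genes and stromal markers, and 0 to 3 for the TGF-beta list. The sign changed for NEO1 (0.00042 with DESeq2 and the block, -0.14 to 0.18 without single libraries), SMAD3 (-0.19 to 0.085), KRT8 (-0.65 to 0.21) and KDR (-0.0050 to 0.90). Leaving out both libraries of a line and leaving out only the extension rows were chosen after seeing the data. The use of rows with neither suffix was not run, since 13968 genes, 6 of the 10 among them, have no such row.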

Other observations

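The genes whose levels over the 8 libraries were most like ID1 by Pearson correlation were ZC3HAV1 (0.95), UBE2G2 (0.94), STAT2 (0.94), CCL5 (0.94) and BAZ1B (0.93). ZC3HAV1, an antiviral zinc finger gene, went from 80.4 ± 8.50 to 105 ± 25.9 CPM, STAT2, a transducer of interferon signalling, from 44.6 ± 4.44 to 80.4 ± 16.4 CPM, and CCL5, a chemokine gene, from 0.491 ± 0.259 to 2.09 ± 1.39 CPM (SD, n = 4). Of these 5, STAT2 was called higher in differentiation medium (log2 fold change 0.85, SE 0.17, edgeR adjusted p = 0.029).

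The genes most like BMP3 were SPTLC1 (0.99), CDC37 (0.98), ATP6V1G1 (0.98), USP38 (0.98) and TJP1 (0.98). TJP1, which encodes the tight junction protein ZO-1, went from 287 ± 25.8 to 471 ± 88.5 CPM (log2 fold change 0.71, SE 0.16, edgeR adjusted p = 0.042), and SPTLC1, a subunit of the enzyme that starts sphingolipid synthesis, from 73.7 ± 5.94 to 96.3 ± 7.16 CPM (edgeR adjusted p = 0.067). No gene was among the 5 most like both ID1 and BMP3. These correlations span both media and the same 4 lines, so they include the shift between the media and are a description.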
